A study of Mus musculus with 24 samples.

Results

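Basal and stromal cells of mammary glands lacking Snai2 were compared across all detected genes. The comparison used the 3 arrays of null basal cells and the 3 arrays of null stromal cells, which are 6 of the 24 arrays of the series. Null animals carried LacZ at both Snai2 alleles (SNAI2 LacZ/LacZ), and wild-type (WT) animals were SNAI2+/+. All samples came from female mouse mammary gland, and the basal and stromal populations had been separated by flow sorting on CD49f and Epcam. The other arrays held WT basal and WT stromal cells, used below as a second genotype, and luminal and unsorted cells of both genotypes, with 3 arrays per group. Age, the number of animals behind a sample and the gate settings were not given, so p-values reflect only how far these arrays differ within a group, and that spread may be technical.

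The mammary epithelium has an inner luminal layer, which makes milk, and an outer basal layer of contractile myoepithelial cells and progenitors that rests on the basement membrane. The stroma around it consists mostly of fibroblasts, which secrete collagen and growth factors, with vessels, fat, nerve and immune cells. Snai2 (Slug) is a zinc finger repressor that binds E-box motifs in promoters of epithelial genes such as E-cadherin, and it is expressed in basal mammary cells. Basal cells therefore combine an epithelial state with a factor known for driving epithelial cells towards a mesenchymal one.

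RNA was measured on single-colour Illumina bead arrays, and all levels below are normalized log2 intensities, in which 1 unit is a 2-fold step. Between 12860 and 14375 of 25697 probes were detected on each of the 6 arrays, and the median unnormalized intensity ran between 94.9 and 138. Levels correlated across genes at 0.935 to 0.982 between arrays of one population and at 0.782 to 0.834 between null basal and null stromal arrays. No Snai2 and no Epcam probe was analysed here, so neither the deletion nor one of the sort markers could be checked. On the third principal component of all 24 arrays, replicate 1 of both null populations lay on one side and replicates 2 and 3 on the other, while replicates 1 and 2 of WT basal and WT stromal cells lay on the first side and replicate 3 on the second. No label names this split. Each gene was read from its brightest probe, and 569 of the 3526 genes with several passing probes had both called and uncalled ones. Of those named below as called, these were Fzd10, Marveld3, Mbp, Mcm6, Myocd, Spint2 and Col11a1, and Syngr1, named for its genotype difference. Of those named below as not passing, Plec, Prss8, Cd44 and Cxcl12 likewise had both called and uncalled probes.

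The separation was wide and nearly even in direction. Of 12549 genes tested, 2689 differed at an adjusted p below 0.05 (21.4%; limma, Benjamini-Hochberg over all genes). Of these, 1316 were higher (10.5%) and 1373 lower (10.9%) in null basal cells. With array medians set equal in place of quantile normalization, 778 were higher and 1241 lower, so the higher share was 38.5% of calls against 48.9%. The lower genes moved further. At least 4-fold changes were found in 324 higher and 504 lower genes, and at least 16-fold changes in 31 higher and 112 lower genes. The values of the 3 null basal arrays did not overlap those of the 3 null stromal arrays in 2612 of the 2689 called genes, and in 37% of all genes tested. A further measure of separation is detection. On all 3 null basal arrays and on no null stromal array, 201 genes were detected, and 363 genes were detected on all 3 null stromal arrays and on no null basal array. In bulk RNA, fewer cells of a type and less RNA per cell cannot be told apart.

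**Figure D1:**
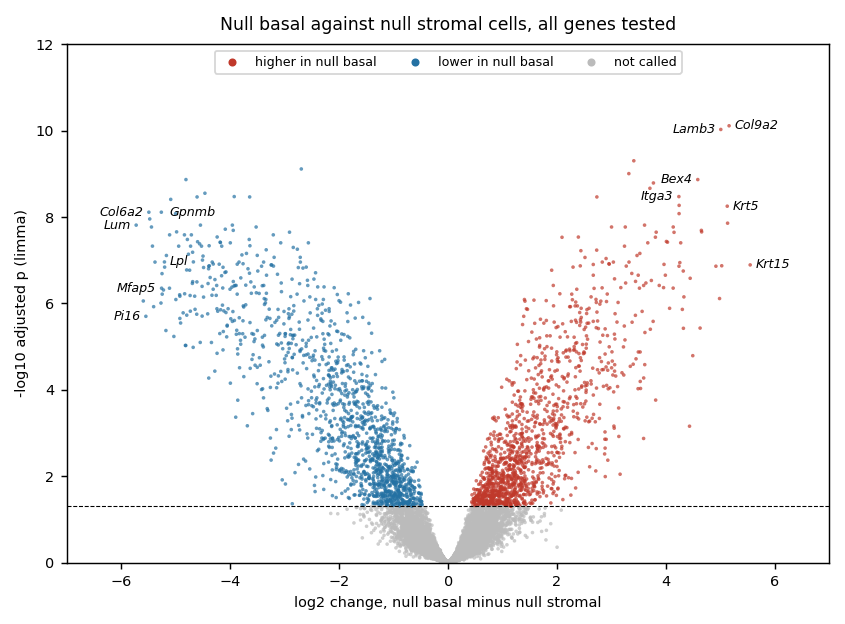
Log2 change of each of the 12549 genes tested (x axis, null basal minus null stromal) against the −log10 adjusted p from limma (y axis), with the dashed line at an adjusted p of 0.05. Red points are the 1316 genes higher and blue points the 1373 genes lower in null basal cells, and Lum, at -5.73, and Krt15, at 5.55, lie at the left and right ends.

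The labelled populations showed their defining markers. Keratins 5, 14, 15 and 17, the intermediate filaments of basal epithelium, were among the most different genes. Krt5 stood at 11.55, 11.52 and 11.52 on the null basal arrays, against 6.82, 6.16 and 6.24 on the null stromal arrays. Its log2 change was 5.12 ± 0.37 (SE, n = 3 per group; adjusted p = 5.60e-09), a 34.9-fold difference. Krt14 stood at 12.52, 12.52 and 12.48 in null basal cells, against 8.81, 8.0 and 8.32 in null stromal cells (log2 change 4.13 ± 0.32, adjusted p = 1.70e-08). Every null basal array was above every null stromal array for both keratins, and the basal arrays lay closer together than the stromal arrays. Krt15, a keratin of stratified epithelium with a hair follicle stem cell pattern, had the largest positive change of all non-overlapping genes (5.55), and it was detected on 1 of the 3 null stromal arrays. In the list of basal keratins, 7 of 8 tested members were higher and none lower, with a median log2 change of 3.86 against 0.07 over all genes. Both Krt5 and Krt14 were detected on all 3 null stromal arrays, and whether epithelial cells were present in the stromal samples was not tested. Fibroblast markers ran the other way. Lum, which encodes the collagen-binding proteoglycan lumican, stood at 5.41, 5.81 and 5.62 in null basal cells, against 11.44, 11.23 and 11.37 in null stromal cells (log2 change -5.73 ± 0.44, adjusted p = 1.54e-08). The 6 arrays formed separate groups for it, and the change was the largest negative one.

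**Figure D2:**
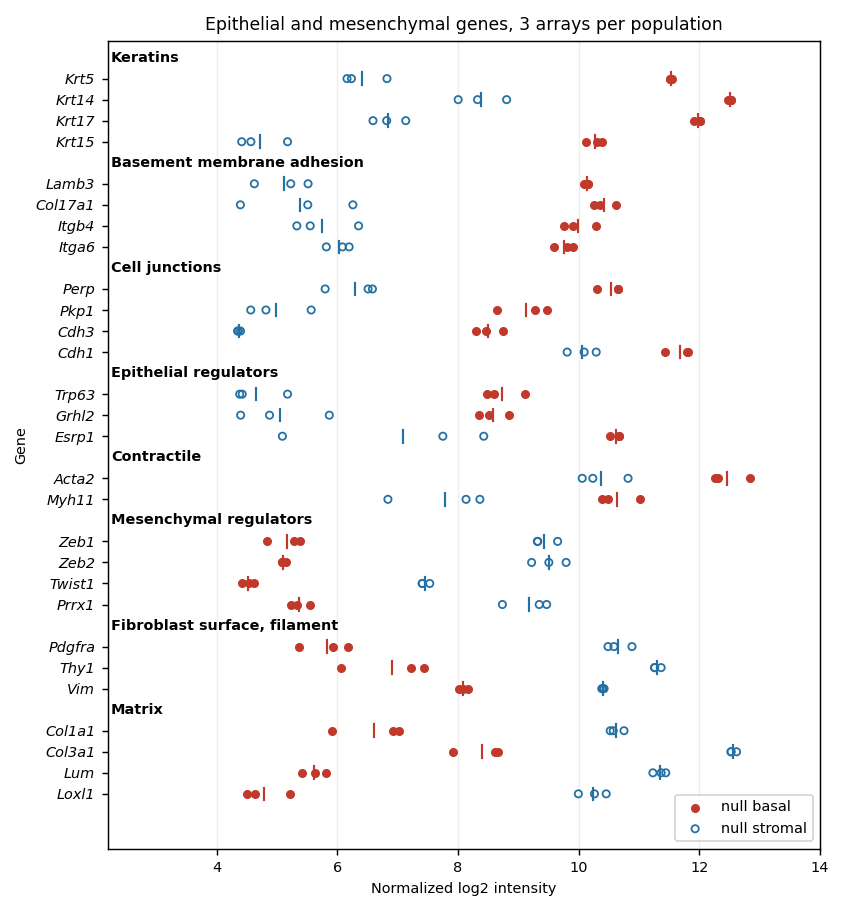
Normalized log2 intensity (x axis) of 28 genes on each null basal array (filled red points) and each null stromal array (open blue points), with vertical ticks at the mean of 3 arrays. The epithelial and contractile genes lie to the right in null basal cells and the mesenchymal and matrix genes to the right in null stromal cells, and no gene shown has overlapping groups. Itga6, among the genes shown, encodes the sort marker CD49f.

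Genes of adhesion to the basement membrane were on the basal side. Hemidesmosomes anchor basal cells to laminin-332 through the integrin made of Itga6 and Itgb4 and the transmembrane collagen Col17a1. Lamb3, the beta chain of laminin-332, stood at 10.09, 10.15 and 10.15 in null basal cells, against 5.23, 4.63 and 5.52 in null stromal cells (log2 change 5.01 ± 0.26, adjusted p = 9.36e-11). Col17a1 stood at 10.62, 10.36 and 10.26 in null basal cells, against 6.26, 4.39 and 5.51 in null stromal cells (log2 change 5.02 ± 0.48, adjusted p = 1.34e-07). Neither gene's arrays overlapped, and Lamb3 was detected on 2 of the 3 null stromal arrays. In this list 8 of 9 tested members were higher and none lower, with a median of 2.19. Itgb4 changed by 4.24 and Itga6 by 3.73. Itga6 encodes the sort marker CD49f, so neither its change nor its part in the list count is a finding. The plakin Plec, a linker present in many cell types, did not pass (0.34, adjusted p = 0.425).

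Integrins were found on both sides. Of 16 tested, 6 were higher and 3 lower in null basal cells, against 10.5% and 10.9% over all genes. The sort marker Itga6 adds no support to the higher count. Itga3, another laminin-binding alpha subunit, changed by 4.24, and the epithelial subunit Itgb6 by 3.22. Itgb8, another beta subunit, was detected on no null stromal array and was at least 6.48-fold higher. Itga11, a collagen-binding alpha subunit of fibroblasts, was lower (-3.45, adjusted p = 2.70e-05). Itgb1, the common partner of many alpha subunits, was detected on all 6 arrays and did not pass (log2 change 0.40 ± 0.19, adjusted p = 0.146).

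Desmosomes join epithelial cells and are linked to keratin. Of 10 tested desmosome genes 9 were higher in null basal cells and none lower, with a median of 2.77. Perp, a tetraspan desmosome protein and a target of the p63 transcription factor, stood at 10.30, 10.65 and 10.66 in null basal cells, against 6.58, 5.80 and 6.51 in null stromal cells (log2 change 4.24 ± 0.31, adjusted p = 8.32e-09). Pkp1, a plakophilin of the desmosome plaque, changed by 4.15 and Pkp3, another, by 3.80. The desmosomal cadherins Dsc2 and Dsc3 were not detected on any null stromal array and were at least 2.98-fold and at least 5.1-fold higher in null basal cells, bounds set by the lowest signal among detected probes. Envoplakin's partner periplakin (Ppl) was the member that did not pass (0.86, adjusted p = 0.0913).

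Tight junction genes were less uniform, with 9 of 15 higher and none lower and a median of 1.19. Marveld3, a membrane protein of the junction, changed by 3.17 on its brightest probe and 0.09 on the other (adjusted p = 0.818 over probes), and Ocln (occludin) changed by 2.05. Marveld2 (tricellulin), which seals the corners where cells meet, was detected on no null stromal array and was at least 2.39-fold higher. Cldn7, a claudin of epithelial cells, stood at 9.84, 9.92 and 9.84 in null basal cells, against 7.50, 7.56 and 7.24 in null stromal cells (log2 change 2.43 ± 0.30, adjusted p = 2.70e-06). Its arrays formed separate groups, and the values within each lay close together. Cldn4, another sealing claudin, changed by 1.75 (adjusted p = 0.0219), and that call ended without null basal replicate 2 or 3 or null stromal replicate 1 or 2 (adjusted p between 0.0736 and 0.0967) and with array medians set equal. Cldn3 was detected on all 6 arrays and did not pass (1.19, adjusted p = 0.1).

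The classical cadherins, which hold neighbouring cells together, divided between the populations. Cdh1 (E-cadherin) stood at 11.43, 11.81 and 11.80 in null basal cells, against 10.29, 9.81 and 10.09 in null stromal cells (log2 change 1.62 ± 0.21, adjusted p = 6.68e-06). The groups did not overlap, although the null stromal arrays were themselves well above the detection limit. Cdh3 (P-cadherin), the cadherin of basal epithelium, stood at 8.74, 8.46 and 8.30 in null basal cells and was not detected on any null stromal array, which made it at least 12.1-fold higher (adjusted p = 4.42e-07). Cdh11, the cadherin of mesenchymal cells, was lower (-3.24, adjusted p = 3.30e-06) and was detected on 1 of 3 null basal arrays. Cdh2 (N-cadherin), often used as a mesenchymal marker, was detected on all 3 null basal arrays and on no null stromal array, with a change that did not pass (0.61, adjusted p = 0.0564).

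Because Snai2 and its relatives bind the E-box CAGGTG, promoters were read for it. In the 250 bases before each gene's annotated start (RefSeq, GRCm38.p6), CAGGTG or its reverse complement CACCTG, with no other motif searched, stood in 304 of 1339 promoters of genes higher in null basal cells (22.7%). It stood in 165 of 1315 promoters of genes lower in null basal cells (12.5%). Of all promoters of tested genes 1990 of 12221 held it (16.3%), and 17.2% of all RefSeq promoters did. Promoters matched 984 of 1316 higher and 986 of 1373 lower genes, a gene with several starts counts more than once, and base composition was not matched. These shares describe letters in a window and carry no test. Examples are printed 5′ to 3′ on the strand of the gene, with the motif in capitals, for 2 claudins, for a basal keratin and for a gene at the stromal extreme. Every example holds the motif, although most promoters of higher and of lower genes do not, so the examples are not typical and show no frequency. Cldn7 (chr11:69965171-69965420, plus strand) holds both spellings, 97 and 57 bases before the start. Cldn7 has 2 promoters in the set, and the one shown was chosen because no other held more copies of the motif. Cldn4 (chr5:134946935-134947184, minus strand) holds 1 at 14 bases, Krt5 (chr15:101712906-101713155, minus strand) 1 at 128 bases and Htra3 (chr5:35679781-35680030, minus strand), a secreted serine protease, 1 at 99 bases.
Cldn7: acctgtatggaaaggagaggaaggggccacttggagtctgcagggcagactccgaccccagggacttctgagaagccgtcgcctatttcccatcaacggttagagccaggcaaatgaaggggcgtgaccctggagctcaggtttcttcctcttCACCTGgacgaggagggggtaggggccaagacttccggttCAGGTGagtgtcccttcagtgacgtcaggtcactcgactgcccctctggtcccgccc
Cldn4: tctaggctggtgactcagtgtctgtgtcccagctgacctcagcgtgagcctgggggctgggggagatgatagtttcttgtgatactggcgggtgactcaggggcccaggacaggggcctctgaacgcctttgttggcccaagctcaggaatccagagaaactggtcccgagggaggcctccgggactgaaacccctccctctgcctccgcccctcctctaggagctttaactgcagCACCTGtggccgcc
Krt5: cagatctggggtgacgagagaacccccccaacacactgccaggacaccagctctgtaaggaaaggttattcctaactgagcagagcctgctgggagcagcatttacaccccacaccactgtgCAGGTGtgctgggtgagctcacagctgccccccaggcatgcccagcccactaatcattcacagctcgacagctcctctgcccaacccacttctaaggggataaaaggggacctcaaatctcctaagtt
Htra3: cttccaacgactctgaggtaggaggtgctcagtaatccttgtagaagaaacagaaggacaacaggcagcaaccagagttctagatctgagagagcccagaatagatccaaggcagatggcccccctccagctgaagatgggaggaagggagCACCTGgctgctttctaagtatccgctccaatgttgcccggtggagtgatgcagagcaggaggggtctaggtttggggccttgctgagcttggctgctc
The motif was thus present in promoters of genes on both sides: Cldn7 and Krt5 were higher in null basal cells, and Htra3, not detected on 1 of the 3 null basal arrays, changed by -5.38.

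Regulators of the epithelial state were higher in null basal cells in 13 of 20 tested genes, with none lower and a median of 1.93. Trp63, the p63 transcription factor of basal epithelia, stood at 9.12, 8.48 and 8.59 in null basal cells, against 5.18, 4.38 and 4.43 in null stromal cells (log2 change 4.07 ± 0.46, adjusted p = 1.30e-06). Esrp1, which directs epithelial splicing, stood at 10.67, 10.67 and 10.52 in null basal cells, against 8.43, 5.09 and 7.75 in null stromal cells (log2 change 3.53 ± 0.58, adjusted p = 9.31e-05). The groups were separate for both, with the lowest Esrp1 value on 1 null stromal array far under the other 2 stromal values. Grhl2, an activator of junction genes, changed by 3.53. Irx4 and Gata3, both DNA-binding developmental regulators, were detected on no null stromal array and were at least 7.69-fold and at least 3.47-fold higher. Elf5, a regulator of the luminal secretory lineage, was detected on all 6 arrays and did not pass (-0.10, adjusted p = 0.959).

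Epithelial surface proteins and membrane proteases followed, with 10 of 11 higher, none lower and a median of 2.04. St14 (matriptase), a membrane serine protease, changed by 2.85, and its inhibitors Spint1 and Spint2 by 2.73 and 2.23. Prss8 (prostasin), a protease that acts with St14, did not pass (-0.09, adjusted p = 0.884).

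The mesenchymal transcription factors formed the reciprocal group, with 9 of 16 lower in null basal cells, 1 higher and a median of -1.64. Zeb1, a repressor of E-cadherin, stood at 5.29, 4.83 and 5.39 in null basal cells, against 9.65, 9.32 and 9.32 in null stromal cells (log2 change -4.26 ± 0.46, adjusted p = 6.50e-07). Zeb2, its relative, stood at 5.15, 5.08 and 5.09 in null basal cells, against 9.79, 9.50 and 9.22 in null stromal cells (log2 change -4.40 ± 0.42, adjusted p = 1.37e-07). Neither overlapped, and the 3 null basal values lay near the detection limit. Twist1, Twist2, Osr2 and Tbx15 were detected on all 3 null stromal arrays and on no null basal array, so they were at least 5.64-fold, 7.07-fold, 22.2-fold and 9.79-fold lower in null basal cells. Snai1, the close relative of Snai2, was detected on all 6 arrays and did not pass (-0.88 ± 0.34, adjusted p = 0.074). Snai3 was lower (-1.21 ± 0.34, adjusted p = 0.0121). Foxc1 was the member that was higher (1.05, adjusted p = 0.0301), a call that ended without null basal replicate 1 or null stromal replicate 2 or 3 (adjusted p between 0.0554 and 0.172) and with array medians set equal.

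Mesenchymal filament and surface genes were lower in null basal cells in 10 of 13 and higher in 1, with a median of -3.09. Vim, the intermediate filament of mesenchymal cells, stood at 8.17, 8.02 and 8.08 in null basal cells, against 10.42, 10.40 and 10.38 in null stromal cells (log2 change -2.31 ± 0.39, adjusted p = 1.19e-04). The gap was several times the spread within either group, and the null basal level was still well above the detection limit. Dpp4 and Fap, related membrane proteases of fibroblasts, were not detected on any null basal array and were at least 26.3-fold and 15.5-fold lower. Mcam, an adhesion protein shared by pericytes and smooth muscle, was higher (2.94, adjusted p = 2.39e-05), and Cd44 did not pass (0.07, adjusted p = 0.933).

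Smooth muscle contractile genes were on the basal side, as 10 of 15 were higher, 2 lower and the median 1.68. Acta2, the alpha actin of smooth muscle and myoepithelium, stood at 12.83, 12.26 and 12.30 in null basal cells, against 10.82, 10.06 and 10.23 in null stromal cells (log2 change 2.10 ± 0.32, adjusted p = 4.93e-05). Null stromal arrays were lower throughout, yet Acta2 was detected on all of them. Actg2, another smooth muscle actin, changed by 3.26 and Myh11, the smooth muscle myosin, by 2.85. The members that were lower were Des, the muscle filament desmin (-3.0, adjusted p = 2.36e-05), and Myocd, a coactivator of smooth muscle genes (-1.42, adjusted p = 1.91e-04).

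**Figure D3:**
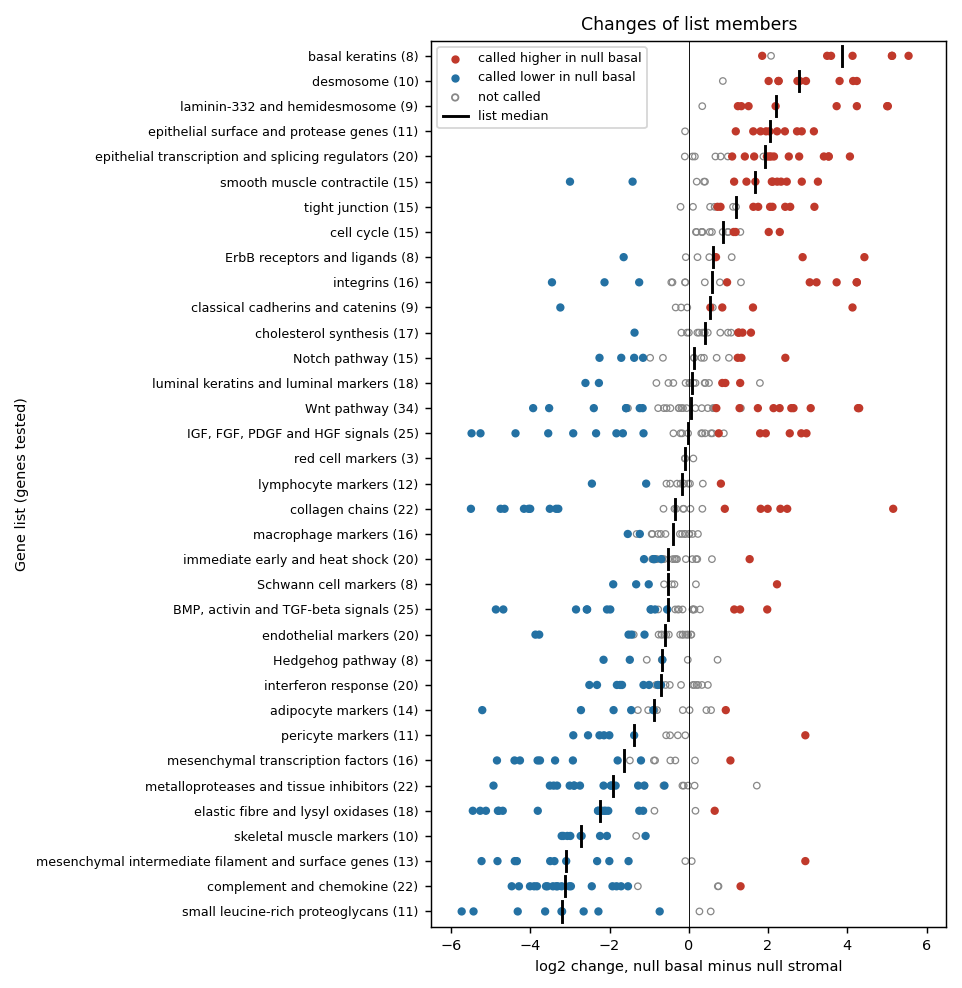
Log2 change (x axis, null basal minus null stromal) of each tested member of 35 gene lists (rows, number tested in brackets), filled where called by limma and open where not, with a black tick at the list median. Basal keratins and desmosome genes have the highest medians, 3.86 and 2.77, and small leucine-rich proteoglycans the lowest, -3.20.

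Matrix genes separated by type of matrix. Among the fibril-forming chains, those of collagen types I, III and V were lower in null basal cells, and Col11a1 was higher (1.99). Col1a1, a chain of type I collagen, stood at 5.90, 7.02 and 6.92 in null basal cells, against 10.75, 10.52 and 10.57 in null stromal cells (log2 change -4.0 ± 0.34, adjusted p = 3.95e-08). Col6a2, a chain of the beaded-filament type VI collagen, had the largest change of the lower chains (-5.50). In all, 9 of 22 collagen chains were lower in null basal cells and 6 higher, and the list median was -0.34. The 6 higher chains included Col7a1, which forms the anchoring fibrils under hemidesmosomes (2.48), and Col4a5 and Col4a6, basement membrane chains that form trimers together (1.81 and 2.31). Col4a1 and Col4a2, the common basement membrane chains, were detected on all 6 arrays and did not pass (-0.32 and -0.36). Col9a2, known as a cartilage collagen chain, was the highest, at 10.26, 10.14 and 10.14 in null basal cells, against 5.17, 4.95 and 4.94 in null stromal cells (log2 change 5.16 ± 0.25, adjusted p = 7.69e-11). Its groups were far apart, and it was detected on 2 of the 3 null stromal arrays.

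Elastic fibre genes and lysyl oxidases, which build and crosslink elastin and collagen, were lower in null basal cells in 15 of 18 and higher in 1 (Ltbp3, which lost its call without null basal replicate 1 or null stromal replicate 2 or 3), with a median of -2.24. Loxl1, which crosslinks elastin, stood at 4.63, 4.51 and 5.22 in null basal cells, against 10.46, 10.26 and 9.99 in null stromal cells (log2 change -5.45 ± 0.43, adjusted p = 1.70e-08), and it was detected on 1 null basal array. Mfap5 and Mfap4, microfibril-associated proteins, were at least 29.1-fold and at least 20.5-fold lower. Of the small leucine-rich proteoglycans 9 of 11 were lower and none higher, with a median of -3.20. Dcn (decorin), which coats collagen fibrils, changed by -3.21, and Fmod (fibromodulin) did not pass (0.55, adjusted p = 0.492). Metalloproteases and their inhibitors were lower in 15 of 22 with none higher, including Mmp3 (stromelysin, -4.93), Mmp2 (gelatinase, -1.97), its activator Mmp14 (-1.85) and the inhibitors Timp1 and Timp2 (-2.15 and -1.96).

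Growth factor genes and receptor genes often stood on opposite sides. Of the PDGF ligands, which act on mesenchymal cells, Pdgfa and Pdgfc were higher in null basal cells (1.80 and 2.55), and Pdgfb was detected on all 3 null basal arrays and no null stromal array (at least 6.39-fold higher). Their receptor Pdgfra stood at 5.36, 6.18 and 5.93 in null basal cells, against 10.88, 10.49 and 10.58 in null stromal cells (log2 change -4.83 ± 0.65, adjusted p = 9.38e-06), and Pdgfrb was not detected on any null basal array. The arrays of the populations were well apart for Pdgfra. Fgf7 and Fgf10, fibroblast ligands of epithelial FGF receptors, were lower in null basal cells, Fgf7 with a log2 change of -3.55 and Fgf10 at least 15.4-fold, while the receptor gene Fgfr2 was higher (1.94, adjusted p = 0.00335). Igf1, a stromal growth factor of the gland, stood at 4.72, 5.35 and 5.94 in null basal cells, against 10.78, 10.46 and 10.54 in null stromal cells (log2 change -5.25 ± 0.52, adjusted p = 2.04e-07). Its groups did not overlap. Over the list of IGF, FGF, PDGF and HGF signals 6 of 25 genes were higher and 9 lower, against 10.5% and 10.9% of all genes. These opposite sides are stated for single genes and were not tested as pairs.

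ErbB signalling governs mammary growth. Nrg1, the neuregulin ligand of ErbB receptors, stood at 8.19, 10.19 and 10.26 in null basal cells, against 4.40, 5.62 and 5.33 in null stromal cells (log2 change 4.43 ± 0.88, adjusted p = 6.96e-04). The groups did not overlap, although replicate 1 of null basal lay below replicates 2 and 3. Epgn (epigen), a ligand of the EGF receptor, was detected on no null stromal array and was at least 6.59-fold higher, whereas the receptor Egfr was lower (-1.64, adjusted p = 0.00175). The 3 of 8 tested ErbB genes that were higher in null basal cells were all ligands, and Egfr was the 1 lower gene. The receptors Erbb2, Erbb3 and Erbb4 were not tested, so Egfr was the only receptor among these 8 genes and receptors cannot be set against ligands here.

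In the Wnt list, 10 of 34 members were higher and 7 lower, against 10.5% higher and 10.9% lower over all genes. The lower count was 4 without null stromal replicate 2, a share near that of all genes. The higher members were the ligand Wnt10a (4.30), the secreted inhibitor Wif1 (4.27), the R-spondin receptors Lgr5 and Lgr6 (2.64, and at least 6.17-fold), the receptors Fzd6, Fzd7 and Fzd10, the transcription factor Tcf7, and Wnt5b and Wnt6. The Fzd10 call was lost without null basal replicate 1 or null stromal replicate 3, and the Wnt6 call without null basal replicate 2 or null stromal replicate 2 or 3. The lower members included the ligand Wnt2, detected on no null basal array (at least 8.08-fold), the inhibitor Sfrp4 (at least 10.6-fold) and Procr, a surface receptor of protein C (-2.40). Axin2, a common target of the pathway, was detected on all 6 arrays and did not pass (0.17 ± 0.53, adjusted p = 0.877).

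In the Notch list 3 of 15 tested genes were higher, 4 lower and 8 not called, against 10.5% higher and 10.9% lower over all genes. The higher members were the ligands Jag1 (1.24), Dll1 (at least 4.12-fold) and Jag2 (at least 2.01-fold). Dll1 and Jag2 were detected on no null stromal array. The 4 lower members were the target Heyl and the receptors Notch1, Notch2 and Notch3. Only 2 of these 4 were called without null stromal replicate 1. Notch2 changed by -1.70 (adjusted p = 2.18e-04), while Hes1, another target, did not pass (-0.97, adjusted p = 0.0843). Hedgehog components were on the stromal side in 3 of 8 genes: the target Gli1 (-2.15), the coreceptor Cdon and the inhibitor Hhip, and none was higher. Of the BMP, activin and TGF-beta list 11 of 25 were lower and 3 higher, and 8 to 10 were lower with 1 null array left out. The ligands Gdf10 and Bmp4 changed by -4.87 and -2.85 and the receptor Tgfbr2 by -2.06, whereas Bmp7, a ligand, and Fst, an activin inhibitor, were higher (1.15 and 1.29), Bmp7 not with array medians set equal.

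Complement and chemokine genes were lower in null basal cells in 18 of 22 and higher in 1, with a median of -3.11. Serping1, the C1 inhibitor, stood at 6.97, 6.97 and 7.13 in null basal cells, against 11.61, 11.43 and 11.42 in null stromal cells (log2 change -4.47 ± 0.30, adjusted p = 2.81e-09). Ccl2 and Ccl7, chemokines for monocytes, changed by -3.90 and -3.83, and Il6, an inflammatory cytokine, by -3.02. Cxcl14, an epithelial chemokine, was the higher member (1.31, adjusted p = 0.00238), and Cxcl12 did not pass (0.75, adjusted p = 0.171). Its probes disagreed, and the mean over its probes gave -0.62 (adjusted p = 0.046). Interferon response genes were lower in 9 of 20, against 10.9% of all genes. That count fell to 5 without null basal replicate 2, 4 without null basal replicate 3, 5 without null stromal replicate 1 and 3 without null stromal replicate 2.

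Further genes also stood at the extremes. On the basal side were Chil1, a chitinase-like secreted protein (4.98), Moxd1, a monooxygenase-like protein (4.92), Reln, the secreted glycoprotein reelin (4.65), Vwa2, a basement membrane protein (4.65), Slco4a1, an organic anion transporter (4.63), and Bex4 (at least 17.1-fold). On the stromal side were Cd248, the mesenchymal surface protein endosialin (-5.60), Pi16, a marker of adventitial fibroblasts (-5.55), Igfbp6, an IGF binding protein (-5.48), Ogn, a small proteoglycan (-5.43), Inmt, a methyltransferase (at least 29.6-fold), Tnxb, a tenascin (-5.27), and Gpnmb, a membrane glycoprotein (-5.27). Arrays that do not overlap were a condition for naming these genes, so this is no further result. Each was called with every null array left out in turn, in fits that reuse the arrays by which it was chosen. Not every gene given here with a log2 change was detected throughout. Detection on 1 of the 3 null stromal arrays was found for Cldn4, Grhl2, Krt15, Marveld3, Moxd1, Ocln, Slco4a1, Spint1, Trp63 and Vwa2, and on 2 of them for Chil1, Col4a6, Col9a2, Fgfr2, Foxc1, Itga3, Itgb6, Lamb3, Lgr5, Nrg1, Pkp1, Reln and Wnt10a. On the null basal arrays, detection on 1 of 3 was found for Cdh11, Fgf7, Gdf10 and Loxl1, and on 2 of 3 for Bmp4, Ccl2, Cygb, Gli1, Gpnmb, Htra3, Igf1, Igfbp6, Lpl, Mmp3, Myocd, Ogn, Tnxb and Zeb1.

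Luminal genes did not follow the basal keratins. Of 18 tested, 3 were higher and 2 lower in null basal cells, against 10.5% and 10.9% over all genes, with a median of 0.07. The higher ones were Krt8, Krt18 and Krt19, keratins of the luminal layer. Krt8 stood at 9.96, 10.98 and 10.998 in null basal cells, against 9.19, 9.02 and 9.83 in null stromal cells (log2 change 1.30 ± 0.35, adjusted p = 0.0107). Replicate 1 of null basal lay below replicates 2 and 3. No call remained for the 3 keratins without null basal replicate 2, without null basal replicate 3, without null stromal replicate 2 or with array medians set equal. The lower ones were Esr1, the oestrogen receptor (-2.61, adjusted p = 1.44e-07), and Aldh1a3, a retinal dehydrogenase (-2.27). The summed intensity of the 18 markers was 3479 to 6627 on null basal arrays, against 2956 to 4254 on null stromal arrays, and their part in the epithelial differences was not tested.

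Markers of other tissues were read in both populations, and those of skeletal muscle differed widely among the null stromal arrays. Of 10 fast skeletal muscle markers 9 were lower in null basal cells and none higher, with a median of -2.72. Their summed intensity was 244 to 275 on null basal arrays, where 1 or 2 were detected, and 737 to 4204 on null stromal arrays, where all 10 were. Myl1, a myosin light chain, was not detected in null basal cells and stood at 9.63, 6.0 and 7.35 on the null stromal arrays, so it was at least 6.55-fold lower in null basal cells. Its highest value was on replicate 1. The part of muscle RNA in the stromal results was not tested. Of 14 adipocyte markers 5 were lower and 1, Pnpla2, a lipase of many tissues, was higher except without null basal replicate 1 or any 1 null stromal array, with sums of 1210 to 1447 in null basal and 5092 to 6074 in null stromal cells. Lpl, lipoprotein lipase, had the largest change (-5.21), and Lep (leptin) was detected on none of the 6 arrays.

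Endothelial markers were lower in 5 of 20 genes and in 3 without null basal replicate 1, against 10.9% of all genes, with none higher. Their sums were 693 to 861 in null basal and 1782 to 2401 in null stromal cells. Tek, an endothelial receptor, was at least 10-fold lower and Ramp2, a receptor accessory protein, changed by -3.87. Of the defining markers Cdh5 was detected on none of the 6 arrays and Kdr on 1, and Pecam1 did not pass (-0.62, adjusted p = 0.444). Pericyte markers were lower in 6 of 11 and higher in 1, and their sums were 1353 to 1479 in null basal and 1959 to 2446 in null stromal cells. Rgs5, a pericyte regulator of G protein signalling, changed by -2.54. Of 16 macrophage markers 2 were lower, near the 10.9% of all genes (1 without null basal replicate 1 or 2 or null stromal replicate 1 or 2, and 4 without null stromal replicate 3) and none higher, with sums of 521 to 589 in null basal and 718 to 1288 in null stromal cells, and Adgre1 was detected on none of the 6 arrays. Of 12 lymphocyte markers 2 were lower and 1 higher, a share near that of all genes. No lymphocyte marker was lower without null basal replicate 2 or null stromal replicate 1, 1 was lower without null basal replicate 1 or 3 or null stromal replicate 2, and none was higher without null basal replicate 1. The sums were 357 to 478 in null basal and 460 to 871 in null stromal cells. Of 8 Schwann cell markers 3 were lower and 1, Mbp, was higher (2.23 on its brightest probe, -0.16 and -0.06 on the others), with sums of 791 to 990 in null basal and 1054 to 1588 in null stromal cells. The 3 red cell markers were detected on none of the 6 arrays.

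Proliferation, stress and lipid genes are set beside the 10.5% of all genes that were higher and the 10.9% that were lower. Cell cycle genes were higher in 4 of 15 and in 2 without null basal replicate 2 or 3, and none was lower. Mcm6, a subunit of the replicative helicase, changed by 2.30, while Cdk1, the mitotic kinase, did not pass (0.18, adjusted p = 0.8). Among 20 heat shock and immediate early genes, 4 were lower and 1 higher, and the lower count was 1 without null basal replicate 2 or 3, 0 without null stromal replicate 1 and 2 without null stromal replicate 2. Cholesterol synthesis genes were higher in 4 of 17, in 2 without null basal replicate 3 or null stromal replicate 2, and lower in 1 except without null basal replicate 1.

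WT cells allowed the same separation to be measured with other arrays. WT basal and WT stromal cells differed in 2278 genes (18.2%), 1069 higher (8.52%) and 1209 lower (9.63%) in WT basal cells. Across the 12549 genes the null and WT log2 changes, which share no array, had a Pearson r of 0.863 and a Spearman rho of 0.727, across genes that are not independent replicates. In both genotypes 1680 genes were called with the same sign, which is 62.5% of the null calls and 73.7% of the WT calls. The median absolute log2 change was 0.39 in null and 0.35 in WT cells.

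**Figure D4:**
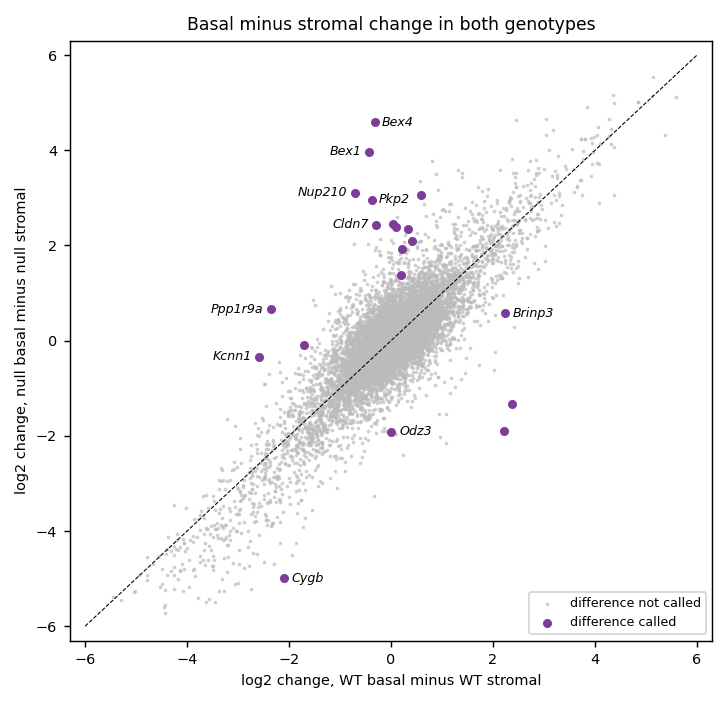
Log2 change of null basal minus null stromal cells (y axis) against WT basal minus WT stromal cells (x axis) for 12549 genes, with the line of equality dashed. Purple points are the 20 genes whose change differed between genotypes by limma's interaction test, of which 10 are named.

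The test of the difference itself, the null change minus the WT change, called 20 genes (0.159%; 13 without null basal replicate 2, null stromal replicate 2 or WT basal replicate 1), 15 more positive (0.12%) and 5 more negative (0.0398%) in null cells, and 696 genes had an unadjusted p below 0.05. Most epithelial and mesenchymal genes named above were not among them, and of the junction genes Pkp2 and Cldn7 were called. Cldn7 stood at 9.84, 9.92 and 9.84 in null basal cells and 7.50, 7.56 and 7.24 in null stromal cells, and at 6.81, 7.13 and 6.98 in WT basal cells and 7.15, 8.11 and 6.53 in WT stromal cells. The null basal arrays were the high ones, all above every array of the other 3 groups, and the change was 2.43 in null and -0.29 in WT cells (difference 2.72 ± 0.42, adjusted p = 0.00329). With array medians set equal, or with only the 12 arrays of the 4 groups in the fit, the Cldn7 difference did not pass (adjusted p = 0.0624 and 0.0559). Pkp2, a plakophilin, behaved alike, at 7.92, 7.95 and 8.10 in null basal cells and 4.92, 4.52 and 5.66 in null stromal cells, and at 4.60, 5.02 and 4.74 in WT basal cells and 5.39, 5.05 and 5.02 in WT stromal cells (difference 3.32 ± 0.39, adjusted p = 1.80e-04). The tight junction list had a median change of 1.19 in null and 0.16 in WT cells, with 9 and 4 of 15 genes higher, but Cldn7 was its one member with a called difference.

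The summed markers of 3 other cell types were lower on all null basal arrays than on any WT basal array. The summed endothelial intensity, 693 to 861 in null basal and 1782 to 2401 in null stromal cells, was 948, 2789 and 4226 on the WT basal arrays and 1478 to 3667 in WT stromal cells. Adipocyte sums were 1210 to 1447 in null basal and 5092 to 6074 in null stromal cells, and were 1608, 3391 and 4739 on the WT basal arrays and 5075 to 7388 in WT stromal cells. WT basal replicate 3 was the WT basal array nearest to the null basal arrays in both sums. Schwann cell sums were 791 to 990 in null basal, 1054 to 1588 in null stromal, 1401 to 1634 in WT basal and 982 to 1380 in WT stromal cells. The split on the third principal component was also unequal, with 1 of 3 null arrays and 2 of 3 WT arrays of each population on its first side. Leaving out the first-side arrays of the basal and stromal groups kept 1 array in each WT group. All luminal and unsorted arrays, of either side, stayed in that fit. The genotype difference in it was 2.03 for Cldn7 and 3.2 for Pkp2. The part of these cell types in the genotype differences was not tested.

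The 2 largest differences were in Bex4 and Bex1, small proteins of a family with similar sequences, so that their probes may be shared between members. Bex4 stood at 9.22, 8.70 and 9.07 in null basal cells and was not detected on any null stromal or WT basal array (difference 4.89 ± 0.41, adjusted p = 1.54e-06). Bex1 stood at 10.56, 10.24 and 10.18 in null basal cells and 6.81, 5.44 and 6.83 in null stromal cells, and at 5.84, 6.37 and 7.07 in WT basal cells and 6.73, 7.51 and 6.35 in WT stromal cells (difference 4.40 ± 0.53, adjusted p = 1.80e-04). Both were high on the 3 null basal arrays and on no array of the other 3 groups. Nup210, a nuclear pore protein, Il23a, a cytokine subunit, Lcp1, an actin-bundling protein, and Syngr1, a vesicle protein, were likewise highest on null basal arrays, with differences of 3.82, 2.47, 2.41 and 2.30. The Nup210 and Il23a calls were each lost with some single arrays left out, null basal replicate 2 among them (adjusted p = 0.0841 and 0.0615 without it). With array medians set equal, Nup210, Il23a and Lcp1 did not pass (adjusted p = 0.0624, 0.1 and 0.1). With only the arrays compared in the fit, Nup210 and Lcp1 did not pass (adjusted p = 0.255 and 0.125). Ppp1r9a, an actin-binding phosphatase regulator, was low on the WT basal arrays alone (3.01), and Kcnn1, a potassium channel, was high on the WT stromal arrays alone (2.25).

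Cygb (cytoglobin) was lower in basal than in stromal cells of both genotypes, at -4.99 in null and -2.10 in WT cells, and its called difference (-2.89 ± 0.57, adjusted p = 0.0357) did not pass when any array of the 4 groups other than WT basal replicate 3 was left out, with adjusted p between 0.0502 and 0.135. Cygb also did not pass with the replicate block (0.0616), and without background correction its difference was -1.54 (adjusted p = 0.308).

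**Figure D5:**
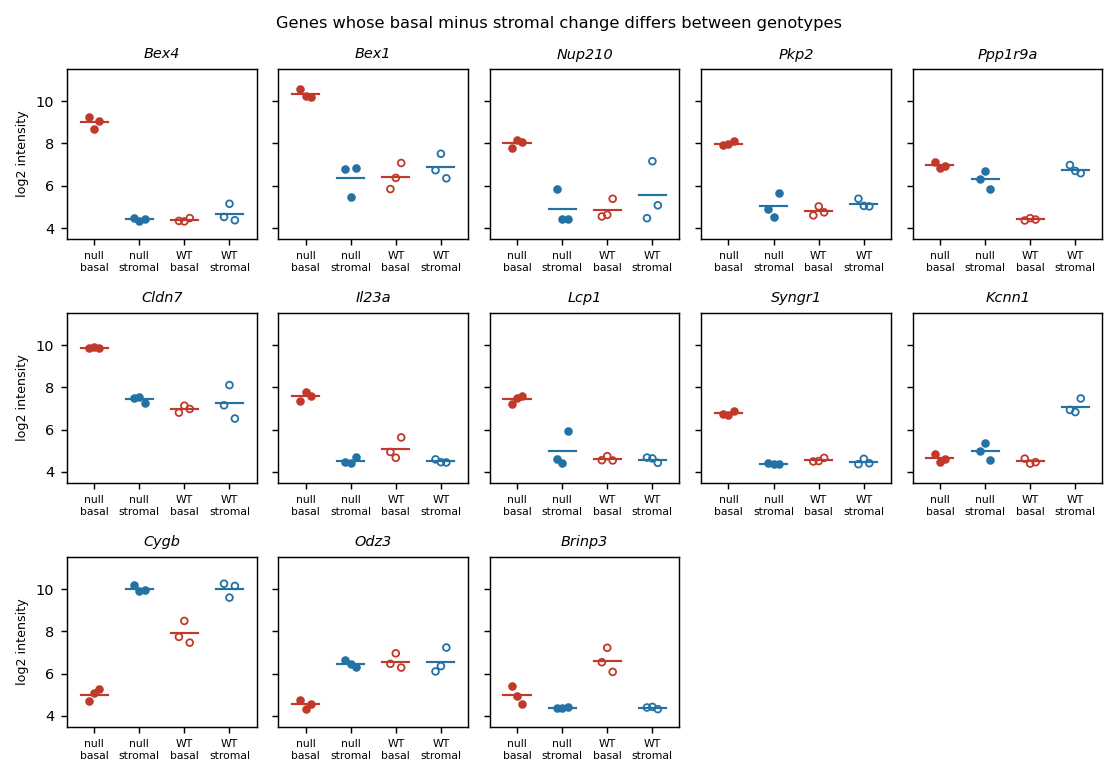
Normalized log2 intensity (y axis) of 13 genes with a called genotype difference, on each array of null basal, null stromal, WT basal and WT stromal cells (x axis; red basal, blue stromal, filled null, open WT), with a line at each mean. Bex4, Bex1, Pkp2 and Cldn7 are high on the null basal arrays and lower in the other 3 groups.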

How the data were processed

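Biotin-labelled total RNA of 24 samples was measured on Illumina bead arrays. The deposited intensity values were neither background-corrected nor normalized, per the file headers and the values themselves, and each had a deposited detection p-value against negative controls. A second deposited intensity table differed from a quantile normalization of the first by at most 0.0124 log2 units. Scanner software was not given in the sources used here.

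Intensities were corrected with limma 3.58.1 (normexp, background from the detection p-values, offset 16), quantile normalized and taken to log2. A probe was kept if detected (p below 0.05) on at least 3 arrays, which left 17878 of 25697 probes. Symbols were updated through RefSeq (20733 probes current, 3868 updated, 1060 kept as given, 36 unusable as a symbol), and the brightest probe stood for a gene, giving 12549 genes. A linear model with 8 group means was fitted to all 24 arrays with empirical Bayes moderation (lmFit, eBayes), with two-sided tests and Benjamini-Hochberg adjustment over all genes. The script was tested on simulated data. A gene detected on no array of a population has only a bound: the other population's mean over the mean of, per array, the higher of the lowest detected signal and the gene's own.

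Named genes were the 12 largest non-overlapping changes in each direction, up to 4 largest members per list with members of the opposite direction and bright members that did not pass, and up to 10 genotype differences in each direction, with a few other list members added for their role; 2 of the genotype differences are not reported here. The members and lists were chosen with earlier results of these data known. Precision is limited by how many arrays there were, and the median standard error of a log2 change was 0.30. No label gives the replicate numbers as pairs, so the main fit did not pair them. Deviations from the group means correlated at 0.301, 0.0987 and 0.237 between same-numbered null basal and null stromal arrays. Between differently numbered ones they correlated at -0.249 to 0.144, so a pairing is not excluded. Alternatives covered background correction, scaling, detection filters, probe choice, arrays in the fit, array weights, replicate block and left-out arrays. Versions were R 4.3.3 and Python 3.11.15.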

Additional observations from a re-analysis of the deposited data

Results flagged for a closer look

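The basal minus stromal change differed between null and WT cells in 20 genes by limma's test of the difference, out of 12549. Of the 13 named, 10 were more positive in null cells: Bex4 (4.89), Bex1 (4.40), Nup210 (3.82), Pkp2 (3.32), Ppp1r9a (3.01), Cldn7 (2.72), Il23a (2.47), Lcp1 (2.41), Syngr1 (2.30) and Kcnn1 (2.25), all as log2 differences. The 3 more negative ones were Cygb (-2.89), Odz3, a teneurin listed under its older symbol (-1.92), and Brinp3 (-1.65). Brinp3 was detected on all 3 WT basal arrays and on no WT stromal array. Odz3 was low on the null basal arrays and similar in the other 3 groups. With each of the 12 arrays left out in turn, Bex4, Bex1, Pkp2, Syngr1, Ppp1r9a, Kcnn1, Cldn7 and Lcp1 kept their calls. The calls of Nup210, Il23a, Cygb, Odz3 and Brinp3 were lost in at least 1 of those fits. Without background correction Cygb was at -1.54, Odz3 at -0.79 and Brinp3 at -0.73, and none of these 3 passed (adjusted p = 0.308, 0.255 and 0.111). Bex4 was the one gene of the 13 called under all 24 alternatives.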

How the results depend on the processing

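Of the 142 genes named above as called, 96 were called with the same sign under every alternative that tested them and 131 with each null array left out; none of the 142 changed sign. Without background correction their log2 changes were 0.380 to 0.969 times as large, with a median of 0.656. With array medians set equal, 778 genes were higher in null basal cells, the 1241 lower genes stayed within 1.5 times the 1373, and the genotype difference called 8 genes. The third principal component split the arrays, with replicate 1 of null basal and null stromal cells and replicates 1 and 2 of WT basal and WT stromal cells on one side. With replicate 1 alone of each null group, an alternative chosen after seeing the data in which the lone arrays are assumed to vary like the other groups, 388 genes were higher and 575 lower and 7 genotype differences were called. Replicates 2 and 3 alone gave 1042 higher and 1070 lower genes, with 1935 of the 2689 calls shared. Keeping only the other side of the basal and stromal groups left 1 array in each WT group, likewise assumed to vary like the others. All luminal and unsorted arrays stayed in that fit, in which the genotype difference was 2.03 for Cldn7 and 3.2 for Pkp2. The genotype difference called 12 genes with only the arrays compared in the fit and 53 with array weights. With 1 array left out, 1002 to 1240 genes were higher, 1140 to 1282 lower and 13 to 30 genotype differences were called. With the replicate block, 1665 genes were higher, 1571 lower and 22 differences called. Null basal replicates 1 and 3 correlated best, in their deviations from group means, with the null stromal array of the same number. Null basal replicate 2 correlated best with null stromal replicate 3 (0.144, against 0.0987 with replicate 2). Whether same-numbered arrays share animals was not tested. Some genes that did not pass changed sign. Axin2 ran between -0.092 and 0.67 with 1 array left out, and was at -0.78 with replicate 1 alone. Cd44 was at -0.077 with medians set equal, -0.17 to 0.26 with 1 array left out and -0.041 with replicates 2 and 3 alone. Cdk1 was at -0.00038 with medians set equal and -0.092 with replicates 2 and 3 alone. Elf5 was at 0.011 with the mean of all probes, 0.15 with array weights, -0.69 to 0.27 with 1 array left out and 0.56 with replicates 2 and 3 alone. Prss8 was at 0.39 with the mean of all probes, 0.030 with array weights and -0.21 to 0.11 with 1 array left out. With the mean of all probes Cxcl12 was at -0.62. The causes were not tested. A slide block was not run, as no file names slides.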
